A study of Homo sapiens with 42 samples.

Results

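A set of 98 chromatin sites was open in MCF10A cells after IFNG + EGF and after OSM, and had no peak in any control library. The sites were chosen by peak calls alone: overlapping peaks of all 42 libraries on chromosomes 1 to 22 and X were merged into 167085 sites, and a site was kept if it held a peak in at least 2 of the 6 IFNG + EGF libraries, in at least 2 of the 6 OSM libraries and in none of the 18 control libraries. Of the merged sites, 129254 had a peak in at least 2 libraries and are called consensus sites here. They served as the background.

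MCF10A cells are an established human line from breast epithelium that does not form tumours. Accessible DNA was measured by ATAC-seq, in which a transposase cuts and tags DNA that is not covered by nucleosomes, so that pile-ups of fragments (peaks) mark open sites. Cells on collagen-1-coated wells were first held in medium with horse serum, hydrocortisone and cholera toxin but no EGF or insulin, and were collected at 0 h (CTRL, 4 libraries) or after 24 h and 48 h with PBS as vehicle (3 libraries each), EGF at 10 ng/ml (4 each), HGF at 40 ng/ml (3 each), OSM at 10 ng/ml (3 each), IFNG at 20 ng/ml on top of EGF (3 each) or TGFB at 10 ng/ml on top of EGF (3 each). The controls of the selection were CTRL, PBS and EGF; IFNG was never given without EGF, and OSM was never given with it, so the pair also differs in EGF. Replicates are named by the letters of the labels; the study describes its replicates as biological, the labels do not say whether each letter was a separate culture, and p-values measure the spread between these libraries only.

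IFNG binds a receptor pair that activates JAK kinases and through them STAT transcription factors, whose dimers bind the GAS element, and it induces IRF1, which binds the related ISRE element. OSM binds OSMR or LIFR together with gp130 (IL6ST) and signals mainly through STAT3, whose dimers also bind GAS. HGF acts through the receptor tyrosine kinase MET, and TGFB through receptors that phosphorylate SMAD proteins. Sites open after both IFNG and OSM are therefore places where the letters of a GAS are of interest. Here GAS means TTCNNNGAA, strong GAS means TTCCNGGAA and ISRE means GAAANNGAA, each searched on both strands within 100 bp on either side of the middle one of the sorted peak summits of a site (its centre summit, the middle of the window); every strong GAS is also a GAS, and other motifs may overlap.

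Of the 12 shared sites found in most of the 12 IFNG + EGF and OSM libraries, 8 carried a GAS or an ISRE. The windows of 4 of these, found in 8 to 10 libraries (counts the rule also used), are printed to show the letters. Each is the hg38 forward strand, 5′ to 3′, and capitals mark GAS and ISRE matches; a site is named by the protein-coding gene with the nearest start, which does not say that it acts on that gene. The windows are chr6:100231020-100231220 (SIM1), chr4:109365931-109366131 (COL25A1), chr12:108628501-108628701 (SELPLG) and chr5:147619416-147619616 (DPYSL3).
SIM1: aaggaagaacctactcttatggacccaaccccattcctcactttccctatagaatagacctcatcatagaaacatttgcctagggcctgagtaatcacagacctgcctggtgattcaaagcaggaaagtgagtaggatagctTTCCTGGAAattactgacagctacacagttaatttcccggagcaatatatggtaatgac
COL25A1: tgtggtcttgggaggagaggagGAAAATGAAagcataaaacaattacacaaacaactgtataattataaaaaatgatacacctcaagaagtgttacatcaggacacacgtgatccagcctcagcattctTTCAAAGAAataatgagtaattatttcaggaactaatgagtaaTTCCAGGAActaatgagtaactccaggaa
SELPLG: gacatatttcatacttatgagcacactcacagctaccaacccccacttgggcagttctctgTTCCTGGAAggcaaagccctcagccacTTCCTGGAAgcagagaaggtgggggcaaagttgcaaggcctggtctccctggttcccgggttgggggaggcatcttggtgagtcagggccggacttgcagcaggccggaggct
DPYSL3: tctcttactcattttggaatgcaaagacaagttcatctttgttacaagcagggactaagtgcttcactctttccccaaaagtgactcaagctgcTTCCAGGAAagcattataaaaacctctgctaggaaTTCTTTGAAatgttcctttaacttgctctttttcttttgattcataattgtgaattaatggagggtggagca

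All 4 windows hold a strong GAS, and those of COL25A1, SELPLG and DPYSL3 hold a second GAS. The COL25A1 window also carries an ISRE. These windows were printed for carrying a motif, so they illustrate the sites and do not measure how common the motif is.

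The libraries differed in the number of peaks they list, from 4217 to 113805, and 8 libraries listed fewer than 30000; read counts were not part of the files, so sequencing depth is unknown. The sample metadata of the study mark 12 of the 42 as not passing its quality check on the share of reads in peaks: IFNG + EGF 24 h B and 48 h C, OSM 24 h C and 48 h B and C, TGFB + EGF 24 h B and C and 48 h A and B, HGF 24 h C, EGF 24 h B and PBS 48 h C. All 42 were kept here, as the rule asks. The number of sites, the HGF and TGFB + EGF shares and the limma calls are also given without these 12. Motif shares and most values of single sites are given with all 42 only. Leaving out the 12 leaves 4 IFNG + EGF, 3 OSM, 5 HGF and 2 TGFB + EGF libraries, and the rule then found 75 sites. Peaks lay within 1000 bp of a start of the epithelial genes LAMB3, ITGB4, KRT5, KRT17, CDH1 and EPCAM in 26 to 37 of the 42 libraries, of KRT14 in 10 and of the basal factor TP63 in 2. No library had one at the leukocyte genes PTPRC, CD3E and SPI1 or at the endothelial genes PECAM1 and CDH5, while COL1A1 (33 libraries), COL1A2 (7), PDGFRA (18) and KDR (24) had some.

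The 98 shared sites were 2.35% of the 4165 control-absent sites of IFNG + EGF and 10.3% of the 952 control-absent sites of OSM, both counted at 2 or more libraries. Of the others, 3845 had no OSM peak and are called IFNG-only sites, and 738 had no IFNG + EGF peak and are called OSM-only sites. Just outside the rule, 222 sites of IFNG + EGF had a peak in exactly 1 OSM library and 116 sites of OSM in exactly 1 IFNG + EGF library. A further 130 sites met both ligand thresholds but had a peak in exactly 1 control library. Among the shared sites, 39 had exactly 2 libraries of each ligand, 14 had at least 3 of each and 7 had at least 4 of each. Exactly 2 libraries were reached by 48 sites for IFNG + EGF and by 75 sites for OSM. No site was found in all 12 libraries, the most being 10.

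IFNG + EGF peaks were listed at 70.4%, 28.6% and 42.9% of the shared sites in the A, B and C libraries at 24 h, and at 66.3%, 78.6% and 9.18% at 48 h (lowest 9.18%, median 54.6%, highest 78.6%). For OSM the values were 89.8%, 22.4% and 23.5% at 24 h and 75.5%, 6.12% and 22.4% at 48 h (lowest 6.12%, median 22.96%, highest 89.8%). The A libraries of OSM stood above the others of that ligand at both times, and 52 of the 98 sites had their OSM peaks in these alone. These were also the OSM libraries with most peaks (109778 and 77169), while IFNG + EGF 48 h C (6742 peaks) and OSM 48 h B (11798 peaks) had the fewest peaks and the fewest shared sites. The part of peak number in these differences was not tested. Without OSM 24 h A the rule found 33 sites, without OSM 48 h A 44, and without IFNG + EGF 48 h B 65.

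**Figure D1:**
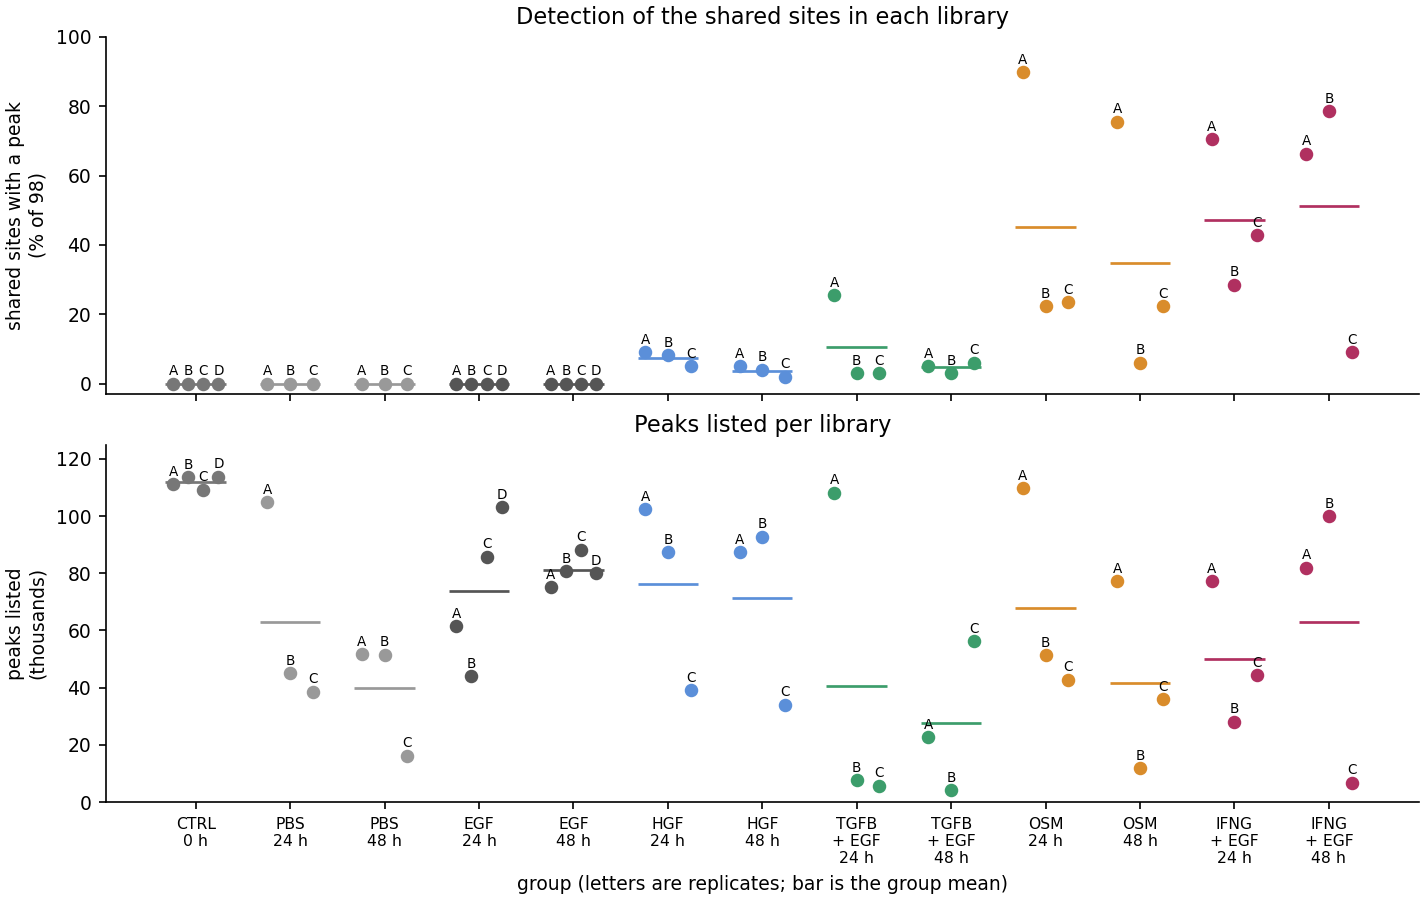
The upper panel plots the share of the 98 shared sites with a peak (%) and the lower panel the number of peaks listed for each library, with replicate letters beside the points and bars at the group means. The OSM A libraries reach 89.8% and 75.5%, control libraries are at 0 by the rule, and HGF and TGFB + EGF libraries stay at or below 25.5%.

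Most sites were seen at both times: 71 had IFNG + EGF peaks at 24 h and 48 h, 85 had OSM peaks at both, and 65 had both. Peaks of the pair of ligands overlapped at all 98 sites, by at least 100 bp at 97, and their median summits lay 35.75 bp apart (median over sites), within 100 bp at 82 sites. Fold enrichment, the height of a peak over its local background at the summit, had a median per site from 3.17 to 13.7 and a median over sites of 5.32. It was higher in IFNG + EGF at 51 sites and in OSM at 47, with medians of 5.34 and 5.20. Neither ligand therefore gave the taller peaks as a rule.

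The SIM1 site (chr6:100230886-100231294, between genes, 232557 bp from the start of SIM1, a neural bHLH-PAS transcription factor) was found in most libraries, 10 of 12. Its fold enrichment was 11.2, 7.22 and 8.33 in IFNG + EGF 24 h A to C, 4.80 and 5.19 in 48 h A and B, 11.8, 8.39 and 9.57 in OSM 24 h A to C, and 9.08 and 5.81 in OSM 48 h A and C. The 24 h values lay above the 48 h values within IFNG + EGF, and TGFB + EGF 24 h A also had a peak there (9.54). The AVL9 site (between genes, 185494 bp from the start of AVL9, a protein of the late secretory pathway) was found in 9 libraries. IFNG + EGF peaks reached 12.4 (24 h A), 6.23 (24 h C), 11.02 and 11.3 (48 h A and B), and OSM peaks 9.07, 4.93 and 3.72 (24 h A to C), 7.79 and 4.38 (48 h A and C). At this site the ranges of the ligands overlapped, with the A library the tallest of OSM at each time.

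The COL25A1 site (chr4:109365869-109366351, between genes, 63279 bp upstream of COL25A1, a membrane-bound collagen) was also found in 9 libraries. Its fold enrichment was 5.90, 4.28 and 5.48 in IFNG + EGF 24 h A to C, 4.90 and 12.002 in 48 h A and B, 7.35, 6.72 and 4.65 in OSM 24 h A to C and 11.8 in OSM 48 h A. The highest value of each ligand came from a 48 h library. The SELPLG site (chr12:108628475-108628736) lies in an intron of SELPLG, the gene of the P-selectin ligand PSGL-1 of leukocytes, 3477 bp past its start and 67 bp from the start of the long noncoding RNA gene ENSG00000257221. Values there were even, 4.83, 4.81, 5.18 and 5.40 in IFNG + EGF 24 h A and B and 48 h A and B, and 6.98, 4.45, 4.05, 5.99 and 4.09 in OSM 24 h A to C and 48 h A and C. TGFB + EGF 24 h A had a peak at that site too (5.96).

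The DPYSL3 site (chr5:147619333-147619817), in an intron of JAKMIP2 and 109448 bp upstream of DPYSL3, a regulator of the cytoskeleton in growing axons, had IFNG + EGF values of 7.08, 5.34 and 7.18 (24 h A, 48 h A and B) and OSM values of 9.06, 5.15, 3.95, 8.47 and 4.24 (24 h A to C, 48 h A and C). The ligands' ranges overlapped. The site nearest to LRRC4C (chr11:38875222-38875622), a synaptic adhesion protein gene whose start is 1417753 bp away, had lower values in IFNG + EGF (4.98 to 6.35, 4 libraries) than the highest pair of OSM (11.2 and 12.2 in 24 h A and 48 h A), while the other OSM values were 6.05 and 6.72. It carried a GAS but no strong GAS.

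The RND3 site (chr2:150681424-150681984, 193997 bp upstream of RND3) had 6.24 to 12.8 in 5 IFNG + EGF libraries and 6.91 and 7.31 in OSM 24 h A and 48 h A. Its window held neither GAS nor ISRE. The ASAP3 site (chr1:23443978-23444585, in an intron of this Arf GTPase regulator, 7630 bp upstream of its nearest start) carried a strong GAS, with 7.32, 3.50, 8.13 and 11.97 in IFNG + EGF 24 h A and C and 48 h A and B, and 8.94, 4.77 and 10.6 in OSM 24 h A and B and 48 h A. The NPIPB4 site, in an exon of a gene of the recently duplicated NPIP family, was listed in 8 libraries at 3.62 to 5.03, but its window maps back to hg38 with a mapping quality of 0, so it cannot be assigned to 1 copy.

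**Figure D2:**
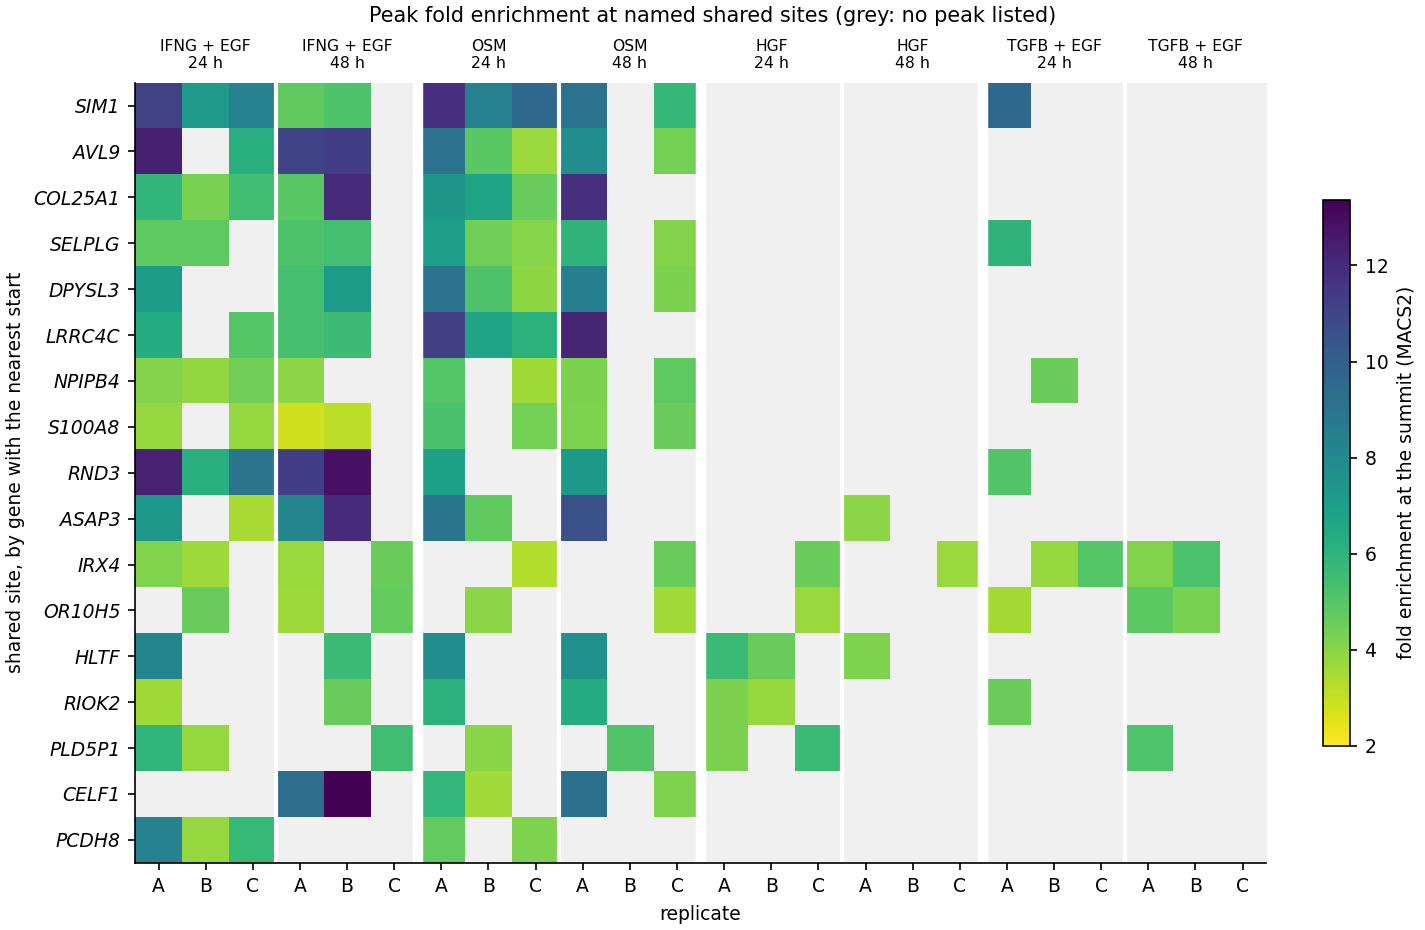
Colour gives the fold enrichment of the peak at its summit for each named shared site (vertical axis, by nearest gene) in each replicate of IFNG + EGF, OSM, HGF and TGFB + EGF (horizontal axis), with grey where no peak was listed. RND3 has IFNG + EGF peaks of 6.24 to 12.8 and OSM peaks of 6.91 and 7.31, and most cells of HGF and TGFB + EGF are grey.

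The shared sites lay away from promoters. One site (1.02%) was within 1000 bp of a protein-coding start, 1 was in an exon, 42 (42.9%) were in introns and 54 (55.1%) between genes. Promoter-proximal shares were 2.50% of IFNG-only, 1.22% of OSM-only and 11.4% of consensus sites. The median distance to a start was 35978.5 bp (964 to 2234465 bp), beside 46472 bp, 58296.5 bp and 35702 bp in those sets, and 58 (59.2%) lay within 50 kb. The median distance was thus close to that of consensus sites, though both medians include promoter-proximal sites, which were more common among consensus sites. The promoter-proximal site was at CELF1 (chr11:47495299-47495786, 964 bp upstream), a regulator of mRNA splicing and stability, with 9.30 and 13.4 in IFNG + EGF 48 h A and B, no 24 h peak of that ligand, and 5.86, 3.58, 9.16 and 4.18 in OSM 24 h A and B and 48 h A and C.

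The sites were spread over 22 chromosomes, with at most 11 on one, and the closest pair lay 382579 bp apart, so no gene had 2 of them within 50 kb. An IFNG-only site lay within 50 kb of 16 shared sites (16.3%, beside 15.2% of consensus sites) and an OSM-only site within 50 kb of 5 (5.10%, beside 3.55%). The nearest site open in at least 9 control libraries was at a median of 9494 bp, beside 14294 bp for IFNG-only and 11954 bp for OSM-only sites. Median width was 447 bp (195 to 1285 bp) and median GC content of the window 43.5%, beside 47.3% in consensus sites.

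Genes of the ligands' own pathways were looked for by listed groups. Within 50 kb of a start, a shared site was found for 0 of 10 receptor and kinase genes, 0 of 20 STAT and partner factor genes, 0 of 12 feedback genes and 0 of 24 interferon response genes. It was found for 2 of 28 OSM and acute phase genes, beside 113 of 19962 protein-coding genes (0.566%). At that background share, 0 in lists of this size is no result about them. Both are served by the same site (chr1:153394071-153394311), 3101 bp upstream of S100A8 and 36320 bp from S100A9, the genes of the calprotectin subunits, which bind calcium and are induced in inflamed epithelium. Its values were low, 3.75, 3.79, 2.81 and 3.12 in IFNG + EGF 24 h A and C and 48 h A and B, and 5.28, 4.37, 4.20 and 4.62 in OSM 24 h A and C and 48 h A and C. Every OSM value was above every IFNG + EGF value, and the window held neither GAS nor ISRE.

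GAS letters were frequent at the shared sites. A GAS was found in 36 of 98 windows (36.7%, 95% Wilson interval 27.9% to 46.6%), beside 11.9% of IFNG-only, 16.8% of OSM-only and 7.66% of consensus windows. The reversed string, a control of the same base composition, was in 6.12%, 6.40%, 7.32% and 5.53%, so the sets differed little there. A strong GAS was in 22 windows (22.4%, interval 15.3% to 31.7%), beside 2.65%, 3.39% and 0.919%, and its reversed string in none of the 98. At least 2 GAS were in 8 windows (8.16%), beside 1.77%, 1.49% and 0.419%. The intervals of the shared sites for GAS and strong GAS lay wholly above those of IFNG-only, OSM-only and consensus sites. All intervals here cover counting error only.

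ISRE letters followed another order. They were in 13 shared windows (13.3%, interval 7.92% to 21.4%), in 47.5% of IFNG-only, 8.13% of OSM-only and 7.89% of consensus windows, and the reversed string was in 16.3%, 30.2%, 4.34% and 6.32%. At shared sites the motif was no more frequent than its reversed string. That string was also frequent at IFNG-only sites, so it is no neutral control for ISRE letters. Nothing is concluded from it about ISRE at the shared sites. Both elements were in 5 shared windows, 1 or both in 44, and neither in 54 (55.1%). Most of the shared sites thus lacked these letters in this window, which says nothing about which factors bind there.

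AP-1 letters (TGANTCA) were in 37.8% of shared, 21.5% of IFNG-only, 35.6% of OSM-only and 37.1% of consensus windows. C/EBP letters (TTGCNNAA) were in 26.5%, 16.3%, 26.2% and 14.3% of the same sets, and their reversed string in 0 of the 98. The fixed letters of that reversed string hold a CG, which those of the motif do not. Its share in the other sets is not given, so it is no matched control. For AP-1 and C/EBP letters, shared sites resembled OSM-only sites more than IFNG-only sites. NF-kB letters (GGGANNTCC) were in 7.14%, 2.52%, 3.79% and 2.48%, with the reversed string also at 7.14% of shared sites. TEAD (GGAATG) was in 16.3% and RUNX (TGTGGT) in 11.2% of shared windows, beside 15.9% and 16.4% of consensus windows. GAS with 1 more base of spacing was in 9.18%, and FOX and the E-box were in 3.06% each. GRHL and KLF were in 2.04% each and the p53 family motif in 1.02%. SMAD, CRE, ETS and CTCF motifs were in 0 of the 98, which allows a share of up to 3.06% (3 counts, with an upper Wilson limit of 3.77%). Shares of the other sets are not given in the text for the motifs from GAS spacing to CTCF. Nothing is therefore concluded from these values about the shared sites.

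**Figure D3:**
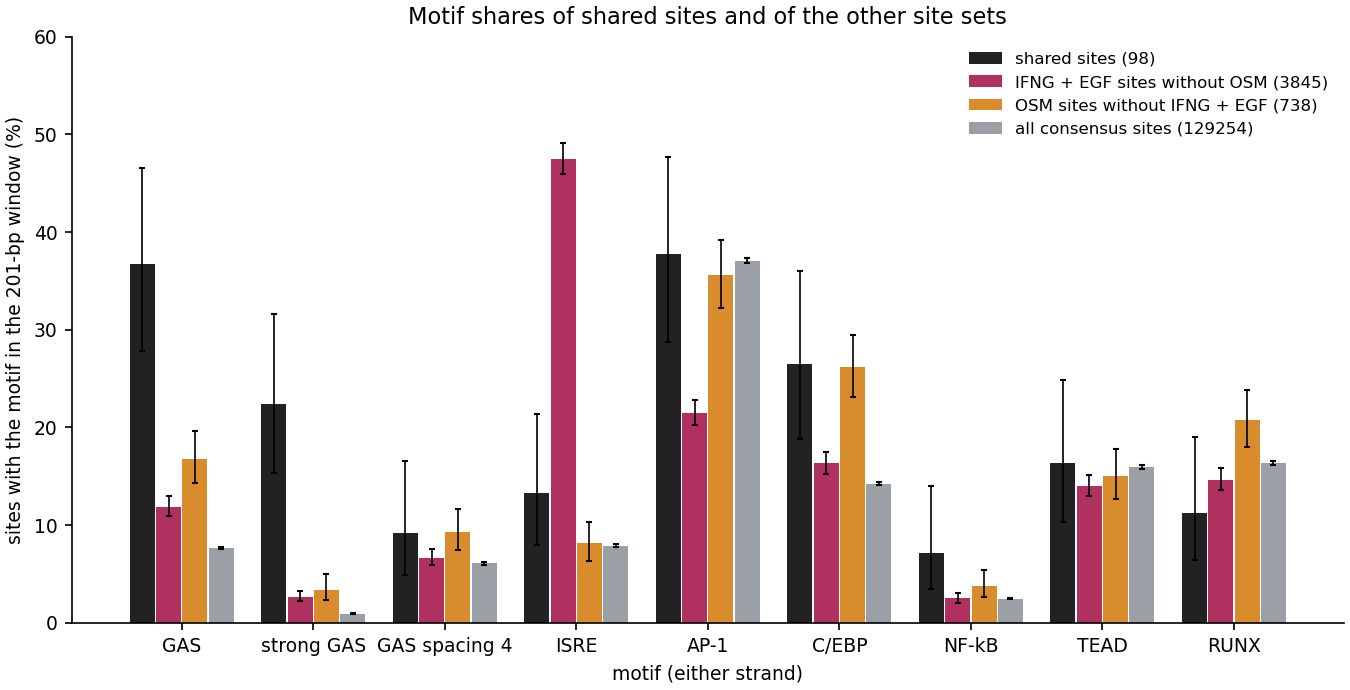
Bars give the share of sites (%) whose window holds each motif on either strand, for shared, IFNG-only, OSM-only and consensus sites, and error bars are 95% Wilson intervals. GAS stands at 36.7% of shared sites beside 7.66% of consensus sites, and ISRE at 47.5% of IFNG-only sites beside 13.3% of shared sites.

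GAS shares are also given by the number of libraries with the peak, a description without a test, since the rule used those numbers. GAS letters were in 11 of the 39 sites with exactly 2 libraries of each ligand (28.2%, interval 16.5% to 43.8%, strong GAS 12.8%) and in 25 of the other 59 (42.4%, 30.6% to 55.1%, strong GAS 28.8%), so these intervals overlapped. They were in 11 of the 14 sites with at least 3 of each, which are part of the 59 (78.6%, 52.4% to 92.4%, strong GAS 57.1%). Just outside the rule they were in 45 of the 222 sites with exactly 1 OSM library (20.3%, strong GAS 1.80%), 31 of the 116 with exactly 1 IFNG + EGF library (26.7%, strong GAS 6.90%) and 33 of the 130 with 1 control library (25.4%, strong GAS 4.62%). No test was made between these groups and the members. Sites open in at least 9 control libraries had GAS in 6.30% and strong GAS in 0.804%.

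Of the 45 shared sites with no HGF and no TGFB + EGF peak, 24 carried a GAS (53.3%, interval 39.1% to 67.1%, strong GAS 35.6%), beside 12 of the 53 with such a peak (22.6%, 13.5% to 35.5%, strong GAS 11.3%). This is a description and was not tested. The GAS nearest the centre summit was at a median of 44.5 bp, within 25 bp at 12 sites and within 50 bp at 22. The median was 38 bp in IFNG-only, 35 bp in OSM-only and 46 bp in consensus sites. Median fold enrichment was 5.53 in IFNG + EGF and 5.86 in OSM at sites with a GAS, and 5.21 and 4.70 at those without.

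**Figure D4:**
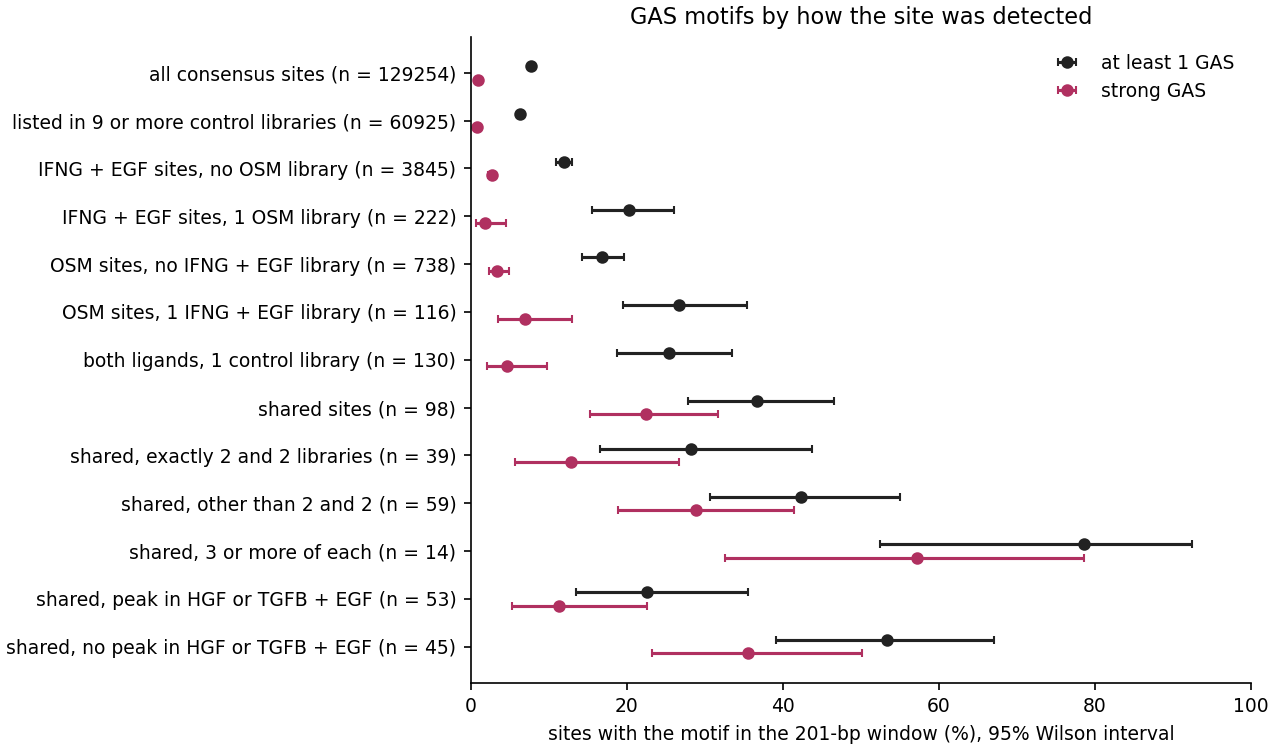
Points give the share of sites (%) with a GAS and with a strong GAS in the window for groups of sites by detection, with 95% Wilson intervals. The 14 shared sites with at least 3 libraries of each ligand reach 78.6% and 57.1%, and sites open in at least 9 control libraries have 6.30% and 0.804%.

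Some shared sites resembled each other in sequence. Windows aligned over at least 100 bp at 70% identity or more in 4 groups of 16 sites in all, an observation made after their values were seen. A group of 5 sites, among them those of AVL9, CLDN24 (a claudin), PCDH8 (a protocadherin) and LIPC (hepatic lipase), lies on 5 chromosomes with identities of 76.9% to 87.6%. All 5 held a strong GAS, 4 held a second GAS starting 21 bp away, none had an HGF or TGFB + EGF peak, and all mapped back with a quality of 60. Among consensus sites, 92 resembled this group, of which 5 were the shared sites, 60 were IFNG-only and 0 OSM-only, 21 had a peak in at least 1 control library, and 74 held a GAS. Which repeat, if any, these sequences belong to was not determined here.

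The CLDN24 site (chr4:183349015-183349381, 26736 bp upstream) had 8.08, 3.61, 4.82, 6.32 and 8.72 in IFNG + EGF 24 h A to C and 48 h A and B, and 6.60 and 4.35 in OSM 24 h A and 48 h A. The LIPC site (chr15:58352086-58352305, in an intron of ALDH1A2, 58392 bp upstream) had 5.41 and 6.04 in IFNG + EGF 24 h A and 48 h B, and 8.21 and 7.31 in OSM 24 h A and 48 h A. All 5 sites of the group had an OSM peak in 24 h A, and those of AVL9 and PCDH8 also had one in a B or C library.

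A group named after LHX9 (LHX9, SPRYD7, METTL7B) held 1 GAS at each site and resembled 492 consensus sites, 2 of them IFNG-only and 19 OSM-only. A group named after KDM1A (KDM1A, GTPBP3, NUAK2) held no GAS, and all 3 sites had HGF or TGFB + EGF peaks. The group of ALG10, PLD5P1, ZXDA, POTEA and ZNF254 mapped back with a quality under 10 and resembled 2792 consensus sites. With NPIPB4, FAM20C and DLGAP2 these made 8 shared sites (8.16%) of uncertain place, beside 2.99% of IFNG-only and 7.99% of OSM-only sites, and 7 of the 8 had HGF or TGFB + EGF peaks.

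**Figure D5:**
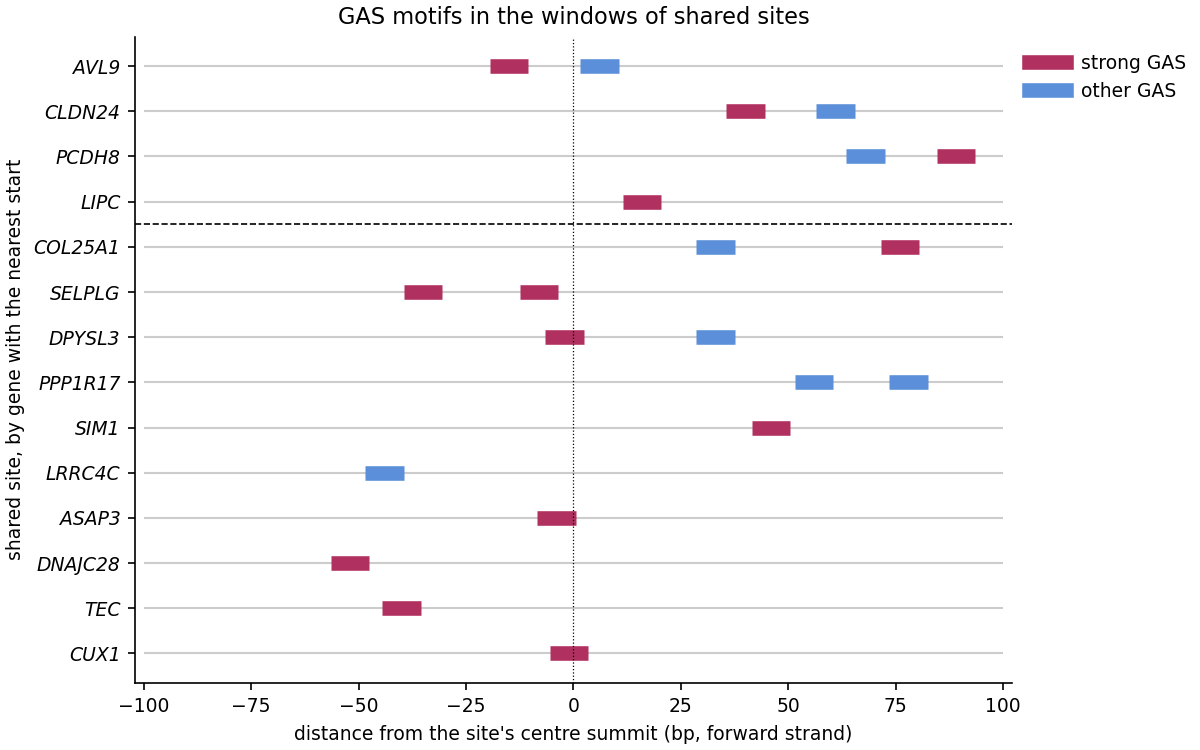
Blocks mark strong GAS (red) and other GAS (blue) by distance from the centre summit (bp, horizontal axis) in the windows of shared sites: above the dashed line sites of the AVL9 group, below it the other sites with at least 2 GAS and then further sites found in most libraries that carry a GAS. In the AVL9, CLDN24 and PCDH8 windows the paired blocks start 21 bp apart.

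HGF and TGFB + EGF peaks entered the merging that set the limits of the sites, but no threshold of the rule used them. HGF peaks were listed at 9.18%, 8.16% and 5.10% of the shared sites in 24 h A to C and at 5.10%, 4.08% and 2.04% in 48 h A to C (lowest 2.04%, median 5.10%, highest 9.18%). TGFB + EGF peaks were listed at 25.5%, 3.06% and 3.06% at 24 h and at 5.10%, 3.06% and 6.12% at 48 h (lowest 3.06%, median 4.08%, highest 25.5%). Group means were 7.48% ± 2.12 (SD, n = 3) and 3.74% ± 1.56 for HGF at 24 h and 48 h, and 10.5% ± 12.96 and 4.76% ± 1.56 for TGFB + EGF. The ligands' ranges overlapped, and TGFB + EGF 24 h A, with 108125 peaks, stood alone.

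Counted by site, 25 (25.5%, interval 17.9% to 34.95%) had a peak in at least 1 HGF library, 34 (34.7%, 26.01% to 44.5%) in at least 1 TGFB + EGF library, 6 in both and 45 in neither. Without TGFB + EGF 24 h A the TGFB + EGF count was 15 (15.3%), and without OSM 48 h A it was 45.5% of the sites that were left. HGF was found at 3.07% of IFNG-only, 10.6% of OSM-only and 75.01% of consensus sites, and TGFB + EGF at 4.01%, 24.3% and 64.99%. All but 8127 of the consensus sites had a peak in a control library. These 8127 control-absent sites are a second background, but a site could enter it through HGF or TGFB + EGF peaks alone. Their shares for these ligands can thus be raised by how they were chosen. Of the 8127, 17.7% (interval 16.9% to 18.6%) had an HGF and 30.2% (29.2% to 31.2%) a TGFB + EGF peak. For both ligands these intervals overlapped those of the shared sites, from which nothing is concluded for that reason. In at least 2 libraries, HGF was found at 7 shared sites (7.14%) and TGFB + EGF at 8 (8.16%), beside 5.34% and 8.86% of the 8127. Without the 12 libraries that failed the quality check, 21.3% of the 75 sites had an HGF and 26.7% a TGFB + EGF peak.

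Among the 5 sites with most HGF and TGFB + EGF libraries, those of IRX4 and OR10H5 had low peaks, of 3.31 to 5.22 in every library that listed one. The IRX4 site (chr5:2146194-2146902, 259257 bp upstream of this Iroquois homeobox gene) was listed at 3.75, 5.05, 4.14 and 5.22 in TGFB + EGF 24 h B and C and 48 h A and B, at 4.57 and 3.72 in HGF 24 h C and 48 h C, at 3.67 to 4.56 in 4 IFNG + EGF libraries and at 3.31 and 4.62 in OSM 24 h C and 48 h C. Of these 12 libraries, 6 list fewer than 30000 peaks, and the part of peak number was not tested. Without the libraries that failed the quality check, 2 IFNG + EGF and OSM libraries were left at each of the IRX4, OR10H5 and PLD5P1 sites, which then no longer met the rule. The OR10H5 site (an olfactory receptor gene, 8491 bp away) had 3 TGFB + EGF peaks of 3.52 to 4.85 and 1 HGF peak of 3.70. The RIOK2 site (a kinase of ribosome assembly, 377270 bp away) had 4.23 and 3.77 in HGF 24 h A and B and 4.57 in TGFB + EGF 24 h A.

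The HLTF site was the one most often found with HGF (chr3:149080126-149080540, in an intron of this DNA helicase gene, 6278 bp past its start). HGF gave 5.64, 4.64 and 4.19 in 24 h A and B and 48 h A, and no TGFB + EGF library had a peak. IFNG + EGF gave 8.17 and 5.60 (24 h A, 48 h B) and OSM 7.78 and 7.62 (24 h A, 48 h A), all but 1 above every HGF value. The PLD5P1 site had 2 HGF and 1 TGFB + EGF peaks but an uncertain place (mapping quality 0).

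Contrasts between ligands and times were tested with limma across all 129254 consensus sites, on adjusted detection (1 for a peak and 0 for none, less the mean of that library over sites found in the same number of libraries), a call being an adjusted p under 0.01 with a difference of at least 0.5. Only the difference between HGF and TGFB + EGF uses no library of the rule's thresholds. Its p-values do use them, since the spread of each site was estimated over all 13 groups, controls included. The other contrasts use the libraries that chose the sites, though the rule pooled their times. The p-values at shared sites are therefore a description in every contrast. For HGF against TGFB + EGF, none of the 98 shared sites was called, beside 5 of all sites (0.00387%), and 8 had an unadjusted p under 0.05 (8.16%, beside 10.3% of all sites; lowest limma adjusted p 0.307). For OSM at 48 h against 24 h, none was called, beside 3 of all sites (0.00232%), and 17 had an unadjusted p under 0.05 (17.3%, beside 4.8% of all sites; lowest limma adjusted p 0.200). Few sites of any kind were called in these contrasts, so a count of 0 calls is near the background. With only the groups of each contrast in the limma fit, an unadjusted p under 0.05 was found at 1 shared site for OSM between times, beside 759 of all sites. For HGF against TGFB + EGF it was found at 12, beside 10364. The larger count for OSM thus rests on the spread estimated over all groups.

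For IFNG + EGF at 48 h against 24 h, 1 of the 98 was called (1.02% of them, limma), beside 1272 of all sites (0.984%), and 37 had an unadjusted p under 0.05 (37.8%, beside 8.74% of all sites). The count of calls is near the background share, while the unadjusted count is above it and rests on libraries that chose the sites. With only the groups of this contrast in the limma fit, the unadjusted count was 27 of the 98, beside 10512 of all sites. The called site was that of PCDH8 (chr13:52887027-52887443, 38595 bp upstream), a protocadherin gene, which was lower at 48 h, as were 138 of all sites (0.107%). Its fold enrichment was 8.31, 3.81 and 5.73 in IFNG + EGF 24 h A to C, with no peak at 48 h in A, B or C. The groups did not overlap, and adjusted detection fell by 1.05 ± 0.140 (SE, n = 3 per time, limma adjusted p = 0.000667). With only the groups of this contrast in the fit the difference was -1.05 and the limma adjusted p 0.584, so the call rests on the spread estimated over all groups. OSM peaks at that site were also at 24 h only (4.75 and 4.19 in A and C), and that difference was not called (-0.60 ± 0.140, limma adjusted p 0.200).

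For IFNG + EGF against OSM, which the choice of sites limits since members need both, none of the 98 was called, beside 1240 of all sites (0.959%). An unadjusted p under 0.05 was found at 23 of the shared sites (23.5%, beside 14.1% of all sites), and the lowest limma adjusted p was 0.0309. With only the groups of this contrast in the limma fit, the unadjusted count was 10 of the 98, beside 11675 of all sites. The number called rests on the library IFNG + EGF 48 h C, which listed 6742 peaks: without it 10 shared sites were called between the ligands and 9 between the times of IFNG + EGF. Calls between the ligands were also 4 without OSM 24 h A and 7 without OSM 48 h A, and calls between the times of IFNG + EGF were 2 to 4 without each of IFNG + EGF 24 h B and C, OSM 24 h B and C and OSM 48 h A.

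Without the 12 libraries that failed the quality check, limma called more sites in every contrast. The shared sites tested here are all 98 of the full set. Some of them no longer met the rule without these 12 libraries. Groups left with 1 library (TGFB + EGF at both times and OSM at 48 h) were assumed to vary like the others. Shared sites called were 5 for HGF against TGFB + EGF (1 higher in HGF and 4 in TGFB + EGF), beside 1626 of all sites (1.26%), and 16 for IFNG + EGF between times (12 higher at 48 h and 4 at 24 h), beside 1702 (1.32%). For OSM between times 1 was called, beside 271 (0.21%), and between the ligands 2, beside 3716 (2.87%). The counts of called members thus depend on whether these libraries are kept.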

How the data were processed

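Chromatin accessibility was measured by ATAC-seq in 42 libraries of 13 groups. Per the labels and the study's methods, reads were trimmed with Trimmomatic 0.36.5 and aligned to hg38 with Bowtie2 2.3.4.1, duplicates were marked with Picard, and peaks were called in each library separately with MACS2 2.1.1.20160309.5, keeping those at q under 0.01 and using no input sample. The deposited peak files give positions, a fold enrichment (a ratio over local background), −log10 q and a score of peak strength, of which the positions, the summit, the fold enrichment and the −log10 q were used; read counts were not, so depth is unknown. BMP2 libraries were not analysed here. Libraries that the study's metadata mark as failing its quality check (12 of 42) were kept, and left out as an alternative chosen after seeing the data.

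Peaks overlapping by at least 1 bp were merged, and the rule given at the opening chose the sites. The members and lists were chosen with earlier results of these data known. Positions were annotated with GENCODE 44. Windows reaching 100 bp either side of the summit were searched for 18 motifs and for their reversed strings, mapped back with minimap2 2.31-r1302 and compared with blastn 2.17.0. Shares have 95% Wilson intervals. Contrasts were fitted with limma 3.58.1 in R 4.3.3 on adjusted detection in all 13 groups, without a replicate block, with Benjamini-Hochberg adjustment over 129254 sites; the script was tested on simulated data. Sites were named by rule: the 12 found in most IFNG + EGF and OSM libraries (ties by fold enrichment), those within 50 kb of a listed gene, the 5 found in most HGF and TGFB + EGF libraries, those within 1000 bp of a start, and those called by limma; CLDN24, LIPC and the groups of similar windows were chosen after their values were seen. Some sites, markers and sequences that the rule names are not reported here. Alternatives were other thresholds, stricter peaks, other site definitions and windows, other fits and leaving out each library.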

Additional observations from a re-analysis of the deposited data

Results flagged for a closer look

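TGFB + EGF 24 h A held a peak at 25.5% of the shared sites, while the other 5 libraries of that ligand held one at 3.06% to 6.12%. Its gap to the nearest of them was 0.864 of the whole range, above the 0.625 of Dixon's test for 6 samples, and the libraries of IFNG + EGF (0.279), OSM (0.195) and HGF (0.286) were below it. Such a test marks about 1 in 20 groups by chance. This library listed 108125 peaks, more than any other of its ligand. It held a peak at 21.7% of OSM-only and 3.46% of IFNG-only sites. It also held one at 26.2% of all 8127 control-absent sites with at least 2 libraries, close to its share of the shared sites. A site could enter the 8127 through a peak of this library, so that share can be raised. Of the other 5 libraries, 4 are marked as failing the study's quality check.

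Contigs other than chromosomes 1 to 22 and X were outside the choice of sites. Of the 4631 merged sites there, 1 met the same rule, with peaks after both ligands and none in the controls.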

How the results depend on the processing

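The number of shared sites was 98 as reported, 14 at a threshold of at least 3 libraries of each ligand, 70 with peaks of −log10 q of at least 5 only, 110 with windows around summits, 101 with detection at the centre, 85 without libraries of fewer than 30000 peaks, 75 without the 12 that failed the study's quality check and 90 without windows of mapping quality under 10. Leaving out each library gave 33 (without OSM 24 h A) to 117 (without PBS 24 h A). At the threshold of 3, HGF was found at 14.3% of sites, GAS at 78.6%, strong GAS at 57.1% and ISRE at 7.14%. A motif window reaching 50 bp either side of the summit gave 22.4% for GAS, 13.3% for strong GAS and 5.10% for ISRE, and one reaching 250 bp gave 48.98% for GAS and 25.5% for ISRE. Leaving out each library gave 21.4% to 33.3% for HGF, 15.3% (without TGFB + EGF 24 h A) to 45.5% (without OSM 48 h A) for TGFB + EGF, 33.3% to 48.5% for GAS, 19.7% to 30.3% for strong GAS and 9.09% to 16.9% for ISRE.

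Calls by limma over all sites moved more. With raw detection, HGF against TGFB + EGF called 637 sites (5 as reported) and OSM between times 6 (3 as reported), and with array weights they called 188 and 60 and IFNG + EGF against OSM 2405 (1240 as reported). Array weights called 2 shared sites between the times of IFNG + EGF and 10 between the ligands. With only the groups of each contrast, HGF against TGFB + EGF, IFNG + EGF between times and OSM between times called 0 sites, the last shared call was lost (0), and IFNG + EGF against OSM called 5. Leaving out each library gave 2 to 141 calls for HGF against TGFB + EGF, 6 (without IFNG + EGF 48 h A) to 1741 for IFNG + EGF between times, 3 to 86 for OSM between times and 835 to 3199 for IFNG + EGF against OSM. Among the shared sites the ranges were 0 to 0, 1 to 9, 0 to 1 and 0 to 10, and the difference at PCDH8 ran from -1.11 to -1.01 and stayed called. Without the libraries that failed the quality check, the 4 contrasts called 1626, 1702, 271 and 3716 sites, of which 5, 16, 1 and 2 were shared. The causes were not tested.

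Over all consensus sites, libraries of the same letter had correlations of deviations from -0.164 to 0.156. These were over 0.1 in 2 of 18 pairs of HGF and TGFB + EGF and 1 of 18 of IFNG + EGF and OSM. Within IFNG + EGF it was 0 of 3 and within OSM 1 of 3 (the A pair, 0.151). Letters thus paired the libraries little over all sites, but the shared sites were not checked alone. At 52 of the 98 shared sites the OSM peaks were only in the A libraries of 24 h and 48 h. Whether these were separate cultures is not known. With the replicate block, the 4 contrasts called 6, 1269, 4 and 1134 sites and 0, 1, 0 and 0 shared sites. The alternatives on mapping quality, the quality check and counting similar windows once were chosen after seeing the data. For the other results, 1815 of 1857 alternative values stayed inside a 95% counting interval around the reported value or on the same side of the threshold. These intervals do not measure the spread between replicates. Of the rest, 41 moved further, 1 call (PCDH8) was lost and none reversed. Many of the 1857 values are counts of libraries at named sites. Leaving out a single library could not move such a count outside its interval, so the total does not measure robustness. Unknown depth and libraries with few peaks limit what a missing peak can show.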
